A study of Mus musculus with 12 samples.

Results

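The comparison described here is between macrophages labelled as MGMT knockout (KO) and wild-type macrophages, both kept for 24 h in the vehicle DMSO, the solvent used for the drug arm of the study. It uses 6 of the 12 libraries of the series, 3 from WT and 3 from KO, and covers the 12814 genes, of 15804 listed in the vehicle table, whose mean normalized count over these 6 libraries was at least 10. All cells were mouse bone marrow-derived macrophages (BMMs), which are grown out of marrow progenitors in culture. WT cells carry the label WTfl/fl, and neither group received DMXAA, the STING agonist given to the other 6 libraries. The labels name no Cre driver, do not say how or in which cells Mgmt was removed, and do not give the age of the mice. Nor do they state whether the 3 libraries per genotype are from different mice, so the p-values measure only the spread between these samples, which may be technical.

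MGMT is a repair protein that takes alkyl groups off guanine and onto itself, so that each molecule works once. DNA that reaches the cytosol is sensed by cGAS, which signals through STING to make type I interferon, and interferon in turn raises a large set of antiviral genes through factors such as STAT2, IRF9 and IRF7. Resting macrophages hold a low level of these interferon-stimulated genes, and cultures grown in colony-stimulating factor can also hold dividing cells. The comparison asks how the 2 genotypes differ before any STING agonist is added.

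The 6 libraries held 79.5 to 93.9 M reads in listed genes. The first principal component took 47.4% of the variance and separated the genotypes, and correlations of log2 values were 0.990 to 0.992 within a genotype and 0.982 to 0.985 between genotypes. Markers of macrophages were high in every library, but not all of them stayed level. Of 30 tested members 5 were lower in KO, with Aif1 at -1.04, and 3 were higher, and the summed counts of every KO library (2840571 to 2945973) lay below those of every WT library (3187818 to 3296798). These sums are weighted toward abundant genes. The macrophage marker Lyz2 alone took 1.08% of normalized counts in WT and 0.699% in KO. The list median was 0.02, and 22 of the 30 members were not called. The values that follow are of 3 members that did not pass the test. Csf1r, the receptor for the growth factor of these cells, had 207022, 203171 and 206480 normalized counts in WT replicates 1 to 3 and 215524, 213115 and 222595 in KO replicates 1 to 3, which lay just above WT. Adgre1, which encodes F4/80, differed by -0.03 and Cd68, a lysosomal marker, by 0.07 (KO minus WT, log2). The median difference over all 12814 genes was 0.01, so differences below are close to being relative to the typical gene. Precision depended on the level, since the median standard error (SE) of the log2 difference was 0.35 for the 1990 genes with means from 10 to 100 and 0.05 for the 1627 genes above 10000.

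Markers of other cell types also moved with genotype. Of 8 tested neutrophil markers, 4 were lower in KO. S100a9, a subunit of the neutrophil protein calprotectin, had 185, 211 and 233 normalized counts in the WT libraries and 1.95, 7.42 and 24.1 in the KO libraries. The granule gene Ngp had means of 75.6 in WT and 3.96 in KO. With a mean of at least 50 required, 2 neutrophil markers were called lower. Across the whole neutrophil list, which includes the receptor gene Csf3r, summed normalized counts were 22066 to 23141 in WT and 19678 to 20870 in KO, and the progenitor-stage genes Mpo and Prtn3 stood at 0 to 5.56 in all 6 libraries. Of 14 listed stromal markers 4 were under the filter, and of the 10 tested 6 were higher in KO. Summed counts of the whole list were 167 to 211 in WT and 321, 835 and 975 in KO replicates 1, 2 and 3. Col1a1, the main collagen of fibroblasts, had 23.6, 0 and 0 in WT and 9.74, 184 and 219 in KO, so its rise came from KO replicates 2 and 3 and the groups overlapped. It passed the filter on the mean only through KO. Col1a1 was not called with DESeq2 (4.13) or a replicate block (4.71). Nor was it called without KO replicate 2 (4.06) or 3 (3.94), or without WT replicate 2 (3.94) or 3 (3.94). With either of those KO libraries left out, 2 stromal markers passed, and 3 passed with DESeq2 or with a mean of at least 50 required. Of 10 monocyte markers 3 were lower, Chil3 (-1.75), Ms4a4c (-1.71) and Ly6c2 (-0.95), and F13a1 was higher (0.81), with overlapping sums of 27062 to 31476 in WT and 25562 to 28411 in KO. Of 6 endothelial and megakaryocyte markers Vwf (0.74) and Kdr (0.48) were higher and Pf4 (-1.30) was lower. Among 5 progenitor markers 1 was higher, Cd34, which had 427, 397 and 404 in WT and 854, 878 and 951 in KO. In bulk RNA, fewer cells of a type and less RNA per cell cannot be told apart, and the part of these other cells in the results below was not tested. The sums by library are shown in the plot of marker lists.

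**Figure D1:**
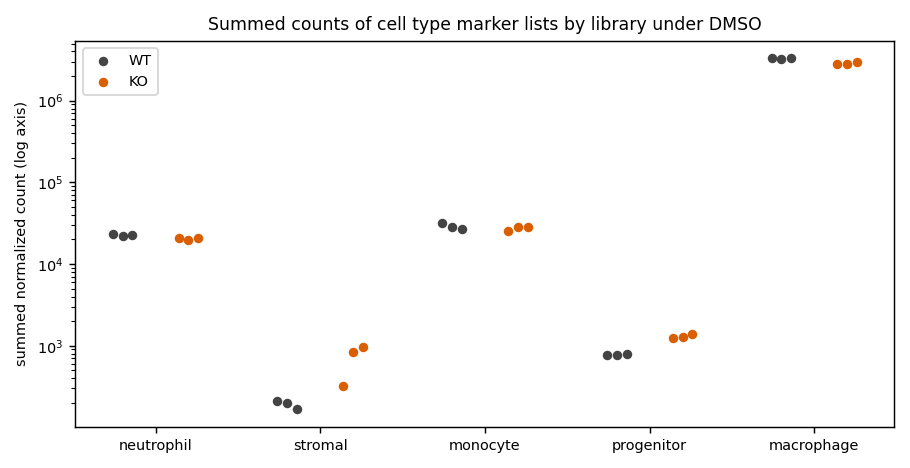
Summed normalized counts (y axis, log scale) of 5 marker lists (x axis) in each WT and KO library under DMSO, 1 point per library, replicates 1 to 3 from left to right. The stromal sums are 167 to 211 in WT and 321 to 975 in KO, and the macrophage sums are 3187818 to 3296798 in WT and 2840571 to 2945973 in KO. The median difference of the macrophage list was 0.02.

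Mgmt itself, at chr7:136894614-137130266 on the plus strand (mm10, positions from the GENCODE annotation), was lower in KO but was still read. It had 248, 233 and 269 normalized counts in WT and 118, 131 and 178 in KO, with 121, 141 and 162 reads in the KO libraries. The KO minus WT difference was -0.83 (SE 0.17, adjusted p = 0.00566 by limma with Benjamini-Hochberg adjustment over all tested genes). The groups did not overlap, and a count over the whole gene does not show which exons the remaining reads came from. Among 75 tested genes within 5 Mb of Mgmt, 6 were lower and 6 higher, which is 16.0% of them against 16.6% of all genes. Genes described further below are among them. Irf7 (log2 -1.98, at 4132 kb from Mgmt) and Mki67 (-0.97, at -1178 kb) were lower, and Ifitm6 (0.91, at 3885 kb) was higher. Whether their position near Mgmt bears on these values was not tested.

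Over all tested genes, 2129 passed an adjusted p of 0.05 in the limma test on log2(normalized count + 1), 1227 lower in KO (9.58%) and 902 higher (7.04%). These 2 shares are the background against which the gene groups below are read. The lower genes moved further. Their median difference was -0.53 against 0.35 for the higher genes, and of the 373 called genes with at least a 2-fold change (2.91% of those tested) 306 were lower and 67 higher. Without KO replicate 1 the calls fell to 1399, 514 of them higher. Groups of libraries did not overlap for 4451 genes, 34.7% of those tested. All fold changes and differences are on the log2(normalized count + 1) scale, which understates the change of genes near 0. The plot of all tested genes shows the tail of lower genes at middling levels.

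**Figure D2:**
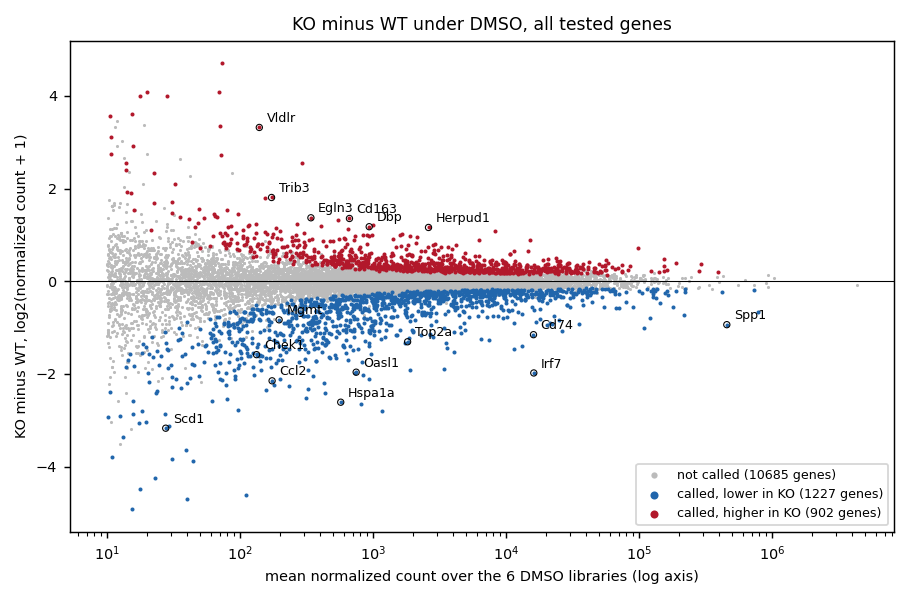
KO minus WT difference (y axis, log2) against mean normalized count over the 6 vehicle libraries (x axis, log scale) for 12814 genes, with 1227 called lower in blue and 902 called higher in red. Irf7, Cd74 and Spp1 are lower at high mean counts, and Vldlr, Trib3, Egln3 and Cd163 are among the higher genes.

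Interferon-stimulated genes were lower in vehicle-treated KO cells. Of 78 tested members of this list 59 fell and 2 rose, against a background of 9.58% lower, and the median difference was -0.54. The groups did not overlap in 65 members on the lower side, where the background was 17.6%. With any 1 library left out the number lower was 52 to 57. Members were chosen with earlier results of these data known, so the direction of the list is not independent evidence.

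Irf7, the factor that amplifies interferon production, stood at chr7:141262706-141266481 on the minus strand. It had 29013, 26027 and 22131 normalized counts in WT and 6269, 5762 and 7559 in KO, a 3.94-fold lower level (log2 -1.98, SE 0.11, adjusted p = 1.74e-06). Every KO library lay far below every WT library. The signalling factors Stat2 (-0.55) and Irf9 (-0.36) were called lower too. The receptor subunit gene Ifngr1 was higher by 0.41 and Irf4 by 0.81, while Irf5, with 44810 to 46982 in WT and 44612 to 46794 in KO, overlapped between groups.

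Antiviral effectors followed the same direction. Oasl1, an inhibitor of Irf7 translation, had 1365, 1013 and 1176 in WT and 287, 260 and 365 in KO (log2 -1.96, SE 0.14, adjusted p = 9.02e-06). The oligoadenylate synthetase genes, whose products activate RNase L, were lower too, Oas1g at -1.10 and Oas3 at -0.77. Ifit1, which binds foreign RNA caps, had 569, 476 and 481 in WT and 283, 216 and 273 in KO. The ubiquitin-like modifier Isg15 (-0.94), its protease Usp18 (-1.08), Mx1 (-1.07) and the nucleic acid sensor Zbp1 (-0.89) fell. Ifi209, of the AIM2-like family, had 2819, 2653 and 2476 in WT and 1276, 1240 and 1336 in KO. Ly6e took 0.309% ± 0.020 (SD, n = 3) of normalized counts in WT and 0.189% ± 0.022 (SD, n = 3) in KO. Ms4a4c had 399, 501 and 819 in WT and 172, 142 and 188 in KO, with WT replicate 3 the highest. The 2 members that rose were Ifitm6 (log2 0.91) and Ifi27 (0.26), and Ifitm3 at -0.04 did not pass. These values are drawn by library in the plot of 16 genes.

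**Figure D3:**
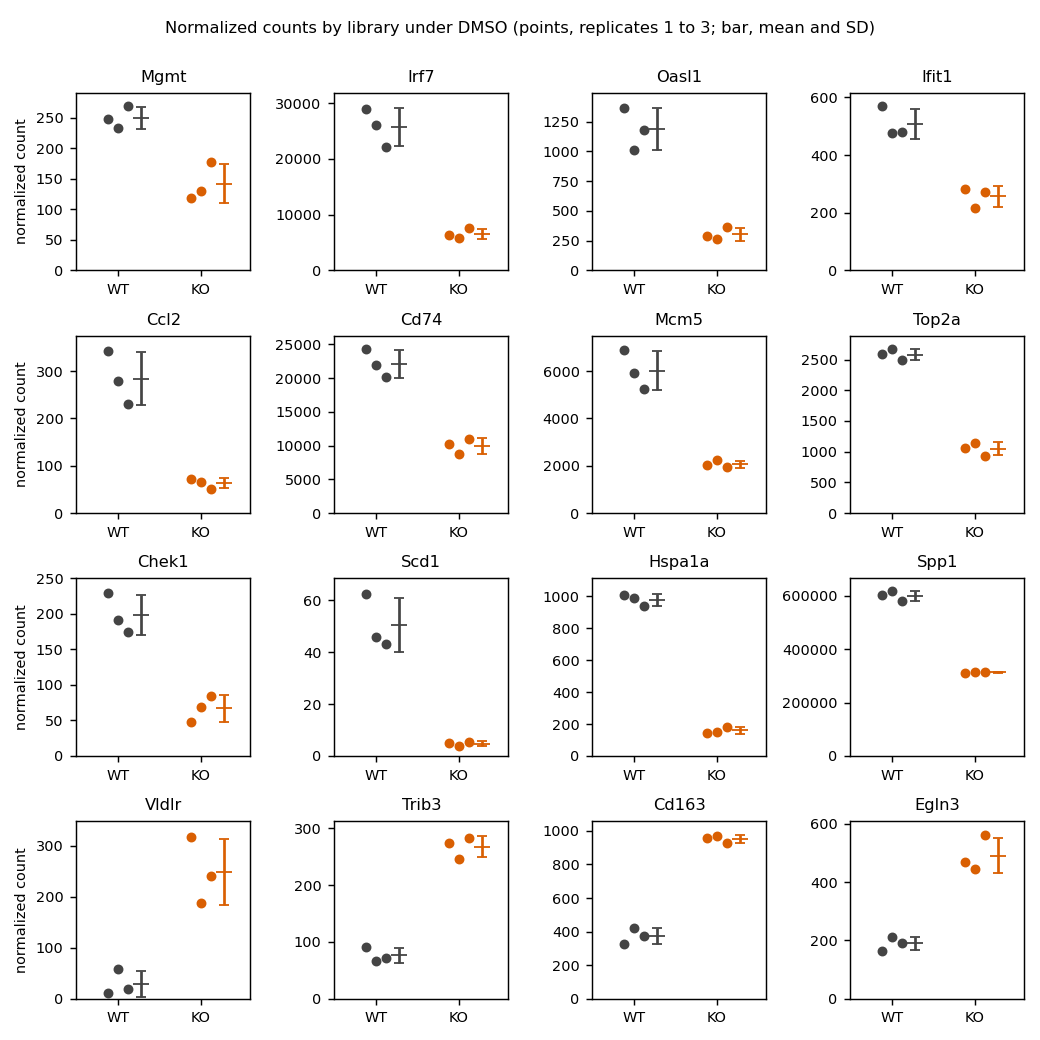
Normalized counts (y axes, from 0) of 16 genes in WT and KO libraries under DMSO, with points for replicates 1 to 3 and a bar for the mean and SD of 3 libraries. KO points lie under all WT points for 12 genes and over all of them for Vldlr, Trib3, Cd163 and Egln3.

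The interferon-inducible GTPases, which attack the vacuoles of intracellular parasites, were lower in 13 of 19 and higher in none, with a median of -0.60, and 1 was higher without KO replicate 3. Tgtp2 had 460, 433 and 510 in WT and 140, 168 and 133 in KO (log2 -1.67, SE 0.13, adjusted p = 1.46e-05). Its near-identical copy Tgtp1 was at -1.59, and reads of the pair may have been split by the counting. Gbp6 (-1.27) and the giant GTPase Gvin1 (-0.52) fell, while Gbp3 (1967, 1965 and 2020 against 1991, 1258 and 1559) overlapped and was called only without KO replicate 1, at -0.50. Gbp, Ifi200 and Slfn genes lie in families of close copies, so single members of them are uncertain.

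Promoters of the interferon list are shown because its members moved together. The motif searched was the interferon-stimulated response element, GAAA, then any 2 bases, then GAAA, on both strands, in the 250 bases before each RefSeq start (GRCm38.p6). It was present in 32.5% of the 83 promoters of the 63 list genes that matched the table. The motif was in 2.98% of all 32851 promoters and 2.81% of those of tested genes. Among the genes called lower 36.1% of promoters held it and among those not called 23.8%, a difference given without a test. The 2 called genes with the smallest p whose promoter holds the motif are printed 5′ to 3′ on the minus strand of the genome, with the motif in capitals. They lie at chr5:120887614-120887863 for Oas1g and chr5:120777660-120777909 for Oas3, and the capitals in Oas1g are 2 overlapping matches that begin 18 and 12 bases before the start.
Oas1g: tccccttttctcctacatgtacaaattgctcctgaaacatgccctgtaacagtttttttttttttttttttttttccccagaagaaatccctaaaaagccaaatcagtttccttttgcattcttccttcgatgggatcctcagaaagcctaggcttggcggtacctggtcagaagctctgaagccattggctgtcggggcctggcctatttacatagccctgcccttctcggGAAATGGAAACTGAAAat
Oas3: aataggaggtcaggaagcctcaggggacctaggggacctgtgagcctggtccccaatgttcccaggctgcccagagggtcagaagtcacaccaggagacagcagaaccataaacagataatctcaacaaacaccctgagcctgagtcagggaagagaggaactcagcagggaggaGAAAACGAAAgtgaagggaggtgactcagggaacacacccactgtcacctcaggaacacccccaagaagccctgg
A match is a description of the sequence only, and no factor binding was measured.

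Upstream sensors were lower by less. Of 23 tested genes of nucleic acid sensing 8 were lower and 4 higher, with a median of -0.11, and 5 were lower without KO replicate 2. Sting1, the receptor that DMXAA acts on, had 5989, 6112 and 6296 in WT and 4392, 4355 and 4924 in KO (log2 -0.43, SE 0.06, adjusted p = 7.96e-04). Every KO library was below every WT library. Dhx58 (-0.73) and Ddx58 (-0.42), both RNA helicases of the RIG-I family, and Samhd1 (-0.34), which breaks down nucleotides, fell. Cgas, the sensor itself, was at -0.33 (adjusted p = 0.0343). That call was lost without KO replicate 1 (-0.30) or 2 (-0.29) and without WT replicate 1 (-0.30), 2 (-0.36) or 3 (-0.34). The higher genes were Tlr9 (log2 0.47), Tlr7 (0.28, lost without KO replicate 2 at 0.25), Nlrp3 (0.37), a core inflammasome gene, and Enpp1 (0.37), which breaks down cGAMP. Of 16 further genes of Toll-like receptor signalling none were lower and 3 were higher, among them Tlr2 (3946, 4293 and 4391 in WT against 5304, 5129 and 5692 in KO) and Irak1 (log2 0.21).

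Of 17 tested genes in the chemokine list 8 were lower and none higher, with a median of -0.24. In that list 1 was higher without KO replicate 1 or WT replicate 2 and with libraries scaled to the same total. Several of the 8 are known to draw monocytes or T cells. Ccl2 had 343, 280 and 230 normalized counts in WT and 72.1, 65.8 and 51.5 in KO (log2 -2.15, SE 0.19, adjusted p = 3.22e-05). Its neighbours in the gene cluster Ccl7 (61.3, 60.9 and 37.7 against 5.84, 16.7 and 14.3) and Ccl8 (21.7, 39.0 and 34.3 against 1.95, 1.85 and 5.48) were lower too. Ccl5, a T cell attractant, had 1074, 1150 and 1839 in WT and 261, 391 and 329 in KO, a difference of -2.02. Pf4, a platelet chemokine that macrophages also make, was at -1.30. The groups of these 5 genes did not overlap. Ccl3, with 1721, 1721 and 1838 against 1856, 1792 and 2183, did not pass. Cxcl12, a chemokine gene counted here with the stromal markers and not in this list, was called higher (1.66 with a pseudocount of 10). Of 14 tested receptors 3 were lower, among them the chemerin receptor Cmklr1 (-1.76) and Ccr3 (-0.89), and Fpr2 was higher (0.73), a call lost without KO replicate 2 or 3 or WT replicate 1 or 3.

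Cytokine and NF-kappaB genes did not follow the interferon genes. Of 36 cytokine and cytokine receptor genes 4 were lower and 6 higher, with 2 lower without KO replicate 1. Il18bp, the soluble blocker of interleukin-18, had 2671, 2372 and 2765 in WT and 1277, 1159 and 936 in KO (log2 -1.22), and Igf1 was at -0.37. Il13ra1 rose by 0.69 and Il16 by 0.39, and Tnf (0.14, SE 0.08, adjusted p = 0.317) did not pass. Of 21 NF-kappaB subunit and feedback genes 3 were lower and 7 higher, with a median of 0.15 and with 1 lower without KO replicate 1 or without WT replicate 2. Cd83, a maturation marker, had 2085, 1955 and 2132 in WT and 3673, 3532 and 3480 in KO (log2 0.79, SE 0.06, adjusted p = 1.59e-05). The feedback inhibitors Nfkbia, Tnfaip3 and Nfkbiz rose by 0.34, 0.40 and 0.50. Ptgs2, which encodes the inducible cyclooxygenase, ran the other way with 132, 181 and 79.8 in WT and 23.4, 20.4 and 35.1 in KO.

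Complement and antigen presentation genes were lower in part. In the complement list 7 of 17 were lower and 2 higher, among them Itgax (0.59), and 1 was higher without any 1 KO library or without WT replicate 3. C3, the central component, had 16615, 16742 and 17220 in WT and 5784, 5889 and 6751 in KO (log2 -1.46, SE 0.06, adjusted p = 7.51e-07). Cfb, of the alternative pathway, had 1348, 1410 and 1761 in WT and 236, 419 and 417 in KO, and properdin, Cfp, was at -0.88. The KO libraries were low throughout for all 3 genes. For MHC class I 12 of 25 were lower and none higher, at a median of -0.17, including B2m (log2 -0.45), the transporter Tap1 (-0.33) and H2-K1 (-0.21). H2-Q6 (-0.95) and H2-Q4 (-0.43) fell, but H2-Q genes are close copies and their counts are uncertain. For MHC class II 4 of 11 were lower. The invariant chain Cd74 had 24287, 21903 and 20169 in WT and 10183, 8725 and 10989 in KO (log2 -1.15, SE 0.09, adjusted p = 1.34e-05). The class II chains H2-Aa (-0.78), H2-Eb1 (-0.59) and H2-Ab1 (-0.57) fell, and Ciita, the master activator of these genes, differed by 0.00 (SE 0.22) with overlapping groups.

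Genes of the cell cycle were the other large group that was lower in KO. Among mitotic genes 70 of 78 fell and none rose, with a median of -1.14, and 46 of them fell at least 2-fold. Among DNA replication genes 40 of 50 fell and none rose, with a median of -0.67. With any 1 library left out these counts were 64 to 69 and 37 to 40. Under scaling of all libraries to the same total 1 mitotic gene was called higher and the median was -1.12.

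The replicative helicase was lower in each subunit named. Mcm5 had 6893, 5899 and 5259 in WT and 2038, 2231 and 1943 in KO, a 2.89-fold lower level (log2 -1.53, SE 0.09, adjusted p = 3.66e-06). Mcm7 (-1.13) and Mcm2 (-1.07) fell. The sliding clamp Pcna had 23858, 23336 and 21066 in WT and 12874, 13565 and 12438 in KO (log2 -0.81). Rfc1, a clamp loader subunit, overlapped between groups at 0.03. Enzymes that supply nucleotides were lower in 10 of 24 and higher in 1, Impdh1 (0.38), with 3 higher without KO replicate 3. Rrm2, the S phase subunit of ribonucleotide reductase, had 1334, 1179 and 976 in WT and 345, 303 and 241 in KO, and thymidine kinase Tk1 was at -1.57.

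Mitotic genes were lower from entry to exit. Top2a, which untangles chromosomes, had 2583, 2665 and 2494 in WT and 1061, 1147 and 933 in KO (log2 -1.31, SE 0.08, adjusted p = 4.37e-06). Tpx2, a spindle assembly factor, had 4016, 4064 and 3743 in WT and 1617, 1775 and 1746 in KO. Mki67, the common proliferation marker, had 1220, 1008 and 881 in WT and 553, 609 and 430 in KO. No library of one genotype reached into the other for these 3 genes. The mitotic kinases Plk1 (-1.46) and Cdk1 (-0.85), Bub1 (-1.48) of the spindle checkpoint, and Prc1 (-1.16) and Kif20a (-1.07) of the midzone fell. Mybl2, a factor that drives mitotic genes, had 356, 340 and 192 in WT and 46.8, 77.9 and 59.2 in KO. Bub3 (-0.13, adjusted p = 0.195) did not pass.

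Regulators of the cycle were lower in 12 of 36 and higher in 3. The higher genes were the inhibitor Cdkn1b (0.28), Ccng1 (0.21) and Rbl2 (0.18), and with libraries left out the number higher was 0 without KO replicate 1 or 2 or WT replicate 3 and 1 without WT replicate 1 or 2. The E cyclins of S phase entry, Ccne1 (-1.47) and Ccne2 (-1.40), fell, and Ccnd1 had 4690, 5023 and 4022 in WT and 2078, 2659 and 2103 in KO. E2f8, a repressor of the E2F family, was at -1.03. Cdk4 (-0.02) and the inhibitor Cdkn1a (-0.08, SE 0.07) overlapped between groups. In the chromatin list 13 of 23 were lower and 1 higher, Dnmt3b (0.42), a call kept among the leave-outs only without KO replicate 3. Uhrf1, which guides maintenance of DNA methylation, had 6095, 5342 and 4597 in WT and 1449, 1644 and 1213 in KO (log2 -1.90), and the histone chaperones Asf1b (-0.96) and Chaf1b (-0.79) fell. Of 28 listed histone genes 20 were under the filter and 2 of the other 8 were lower.

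For replication genes the motif searched was the E2F site, TTTC or TTTG followed by CCGC or GCGC, and for mitotic genes the cell cycle homology region, TTTGAA, both on either strand. In the 250 bases before the start 20.5% of 44 promoters of replication genes held an E2F site. The share was 1.86% of all promoters and 3.24% of those of tested genes. The homology region was in 35.2% of 71 promoters of mitotic genes, against 16.0% of all and 11% of those of tested genes. When the 50 bases after the start were included the shares were 38.6% against 2.26% and 63.4% against 17.9%. Shares in genes called lower and not called were 22.9% and 11.1% for the first motif and 34.9% and 37.5% for the second. The 4 promoters printed belong to the called genes with the smallest p that hold the motif, on the plus strand for Mcm5 at chr8:75109259-75109508 and Prc1 at chr7:80294226-80294475, and on the minus strand for Mcm7 at chr5:138171884-138172133 and Top2a at chr11:99024190-99024439. In Mcm5 the capitals are 2 overlapping matches on opposite strands.
Mcm5: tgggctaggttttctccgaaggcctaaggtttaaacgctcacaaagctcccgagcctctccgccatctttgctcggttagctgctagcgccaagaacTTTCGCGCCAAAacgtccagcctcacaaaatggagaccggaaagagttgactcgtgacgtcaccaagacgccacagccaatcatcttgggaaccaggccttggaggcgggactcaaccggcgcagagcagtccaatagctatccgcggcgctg
Mcm7: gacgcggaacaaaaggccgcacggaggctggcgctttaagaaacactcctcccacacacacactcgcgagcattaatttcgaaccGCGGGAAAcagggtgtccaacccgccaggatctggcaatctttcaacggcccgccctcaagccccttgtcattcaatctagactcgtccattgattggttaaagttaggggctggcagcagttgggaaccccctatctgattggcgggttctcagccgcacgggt
Top2a: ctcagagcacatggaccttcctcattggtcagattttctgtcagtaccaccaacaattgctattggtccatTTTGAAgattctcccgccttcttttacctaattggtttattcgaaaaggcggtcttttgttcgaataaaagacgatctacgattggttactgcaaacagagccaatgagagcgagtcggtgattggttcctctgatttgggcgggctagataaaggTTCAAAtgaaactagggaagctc
Prc1: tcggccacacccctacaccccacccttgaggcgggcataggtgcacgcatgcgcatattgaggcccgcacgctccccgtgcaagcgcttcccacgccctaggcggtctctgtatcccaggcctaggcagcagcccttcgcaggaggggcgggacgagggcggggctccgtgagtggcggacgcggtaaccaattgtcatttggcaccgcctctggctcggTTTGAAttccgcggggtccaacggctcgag

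In the list for alkylation damage, base excision and mismatch repair 4 of 32 were lower and none higher, close to the background, at a median of -0.03. Beside Mgmt these were Exo1, an exonuclease of mismatch repair, with 169, 172 and 153 in WT and 52.6, 62.1 and 34.0 in KO, Neil3 (log2 -1.54) and the uracil glycosylase Ung (-1.47). The other enzymes that reverse or remove alkyl damage directly did not pass. Alkbh2 had 368, 333 and 335 in WT and 343, 319 and 247 in KO (log2 -0.20, SE 0.14), Alkbh3 differed by -0.04 (SE 0.09) and Mpg, the alkyladenine glycosylase, by 0.12 (SE 0.13).

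Homologous recombination and Fanconi genes were lower in 15 of 38 and higher in none, with a median of -0.24 and 10 lower by at least 2-fold. The helicase Pif1 (-2.35) and Brca1 (-1.46) fell. Of 36 checkpoint genes 2 were lower, of which Chek1 had 229, 191 and 175 in WT and 47.7, 68.6 and 84.4 in KO. The other, Rad18 (-0.55), was not called without KO replicate 3 (-0.40) or WT replicate 3 (-0.47). Among 29 p53 targets 3 were lower, Gadd45b (-0.67), Gadd45g (-0.50) and Plk2 (-0.44), and 2 were higher, Fas (0.53) and Ccng1 (0.21), at a median of -0.03 and shares near the background. Without KO replicate 1 neither of the 2 higher calls was made, and Ccng1 also lost its call without KO replicate 2 or WT replicate 2 or 3, and Fas without KO replicate 3. The spread within each list is shown in the plot of gene lists.

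**Figure D4:**
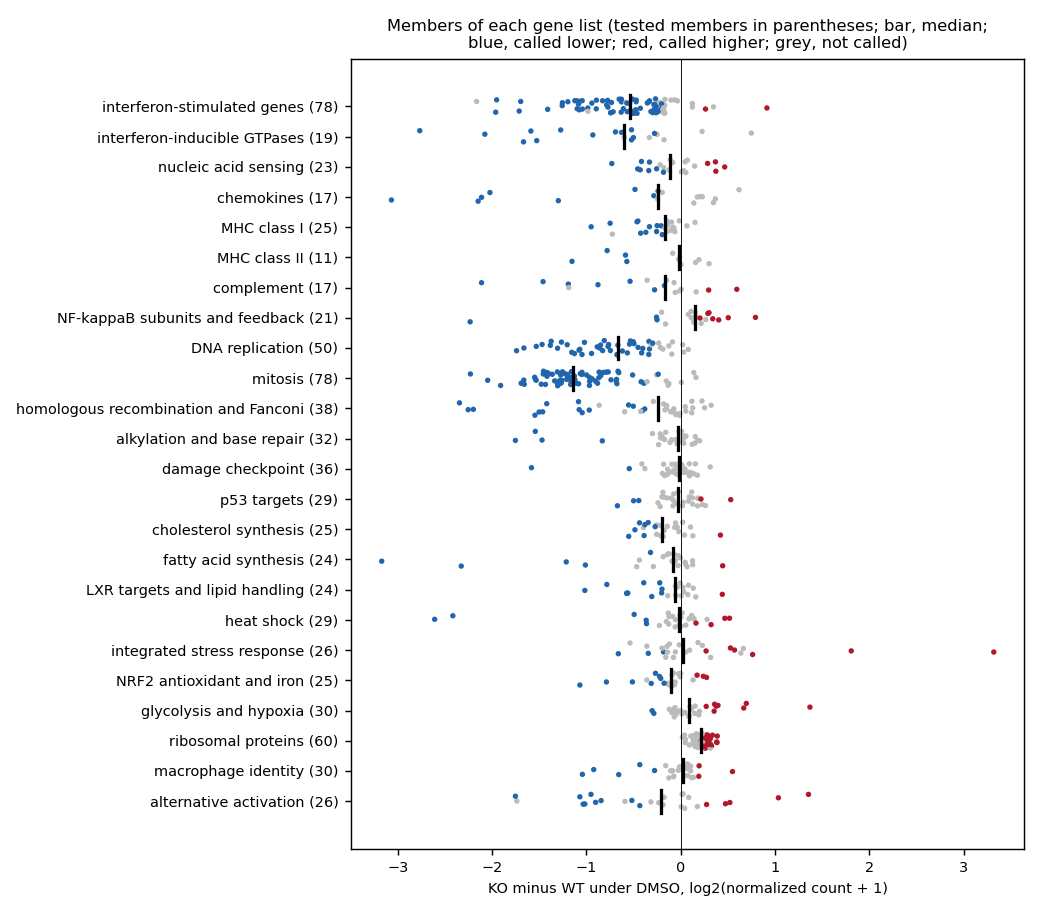
KO minus WT differences under DMSO (x axis, log2) of the members of 24 gene lists (rows, tested members in parentheses), 1 point per gene, blue for called lower, red for called higher and grey for not called, with a black bar at the median. The mitotic list has its median at -1.14 and the ribosomal protein list at 0.21.

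Lipid genes were lower in several branches. Scd2, a stearoyl desaturase, had 560, 610 and 594 in WT and 268, 264 and 228 in KO (log2 -1.21, SE 0.11, adjusted p = 2.99e-05). Its relative Scd1 had 62.3, 45.7 and 43.2 in WT and 4.87, 3.71 and 5.48 in KO, a difference of -3.17 that was -2.03 with a pseudocount of 10. The fatty acid desaturase Fads2 had 553, 562 and 508 in WT and 119, 101 and 102 in KO, and Me1, which supplies NADPH, was at -1.01. In all, 5 of 24 genes of fatty acid synthesis were lower and 1 higher, Acss2 (0.44), which was not called without KO replicate 1. Cholesterol synthesis genes were lower in 7 of 25, with 4 lower without KO replicate 2 and 3 without WT replicate 2. Fdps (-0.49) and Idi1 (-0.55) fell, while Fdft1, at the branch to sterols, rose by 0.42. Among LXR targets and lipid handling genes 10 of 24 were lower and 1 higher. The scavenger receptor Cd36 had 144867, 154182 and 138451 in WT and 73158, 76737 and 66449 in KO (log2 -1.02), and lipoprotein lipase Lpl (-0.78), the receptor Nr1h3 (-0.57) and the lipid droplet coat Plin2 (-0.57) fell. Apoc2 rose by 0.44.

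Heat shock genes were not lower as a group, with 5 of 29 lower and 4 higher, 2 of them without KO replicate 1, 2 or 3. The inducible chaperones Hspa1a (1011, 990 and 938 in WT against 146, 152 and 183 in KO) and Hspa1b (773, 718 and 710 against 130, 127 and 155) were the exceptions in size, and as near-identical copies they are uncertain singly. Dnajb4 (-0.49) and Hsp90aa1 (-0.36) fell. The heat shock element, GAA, TTC and GAA with any 2 bases between each, was in none of the promoters of the 4 genes called lower that matched the table, which says only that these letters are not in that window.

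Stress and hypoxia genes supplied several of the largest increases. Trib3, a pseudokinase induced by amino acid and endoplasmic reticulum stress, had 91.6, 65.7 and 72.0 in WT and 274, 247 and 283 in KO (log2 1.81, SE 0.16, adjusted p = 3.60e-05). Vldlr, a lipoprotein receptor, had 11.3, 59.0 and 18.8 in WT and 317, 188 and 241 in KO (log2 3.32, SE 0.46). All KO libraries were above all WT libraries. Of 26 genes of the integrated stress response 6 rose, among them Gdf15 (0.76) and Atf5 (0.57), and 3 fell, among them Ddit3 (-0.34), and Atf4 overlapped at -0.06. Of 20 genes of the unfolded protein response 3 rose and none fell. Herpud1, of endoplasmic reticulum degradation, had 1771, 1640 and 1432 in WT and 3669, 3528 and 3594 in KO (log2 1.16), Ern1 rose by 0.53 and Xbp1 by 0.33.

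In the glycolysis and hypoxia list 8 of 30 were higher and 2 lower. Egln3, an oxygen-sensing hydroxylase induced in hypoxia, had 165, 210 and 193 in WT and 470, 443 and 560 in KO (log2 1.37, SE 0.13, adjusted p = 5.78e-05). Ndrg1, Ankrd37, Egln1 and Vegfa rose by 0.69, 0.67, 0.39 and 0.38, whereas the glycolytic enzymes Pkm and Hk3 were at -0.30 and -0.29 and Hif1a overlapped at -0.05. Of 25 NRF2-linked antioxidant and iron genes 8 were lower and 3 higher, the latter Slc40a1 (0.27), Cat (0.24) and Nfe2l2 (0.17). Without KO replicate 2 the counts were 5 lower and 1 higher, without KO replicate 1 there was 1 higher, and without WT replicate 2 none were higher. Hmox1, which degrades haem, had 41488, 36125 and 30176 in WT and 17375, 17379 and 16183 in KO (log2 -1.07), and Srxn1 was at -0.51. Of 60 ribosomal protein genes 27 rose and none fell, the differences of all 60 were above 0 and the median was 0.21. This count moved with single libraries. It was 15 without KO replicate 1, 17 without KO replicate 3, 15 without WT replicate 2, 14 without WT replicate 3 and 50 without WT replicate 1. Many ribosomal protein genes have pseudogenes that can share their reads. Of 39 genes of oxidative phosphorylation 6 were lower and 1 higher, with 1 lower without KO replicate 2 or WT replicate 2, and 2 lower without KO replicate 1 or WT replicate 1 or 3.

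Macrophage surface and matrix genes changed in both directions. Spp1, or osteopontin, had 601772, 616450 and 578673 in WT and 309596, 314932 and 313889 in KO (log2 -0.94, SE 0.04, adjusted p = 7.51e-07). It took 0.680% ± 0.024 (SD, n = 3) of normalized counts in WT and 0.362% ± 0.006 (SD, n = 3) in KO. Cd163, the haemoglobin scavenger receptor of resident-type macrophages, had 326, 419 and 377 in WT and 960, 970 and 925 in KO (log2 1.35, SE 0.10, adjusted p = 1.34e-05). Vsig4, a complement receptor that is not in the complement list above, had 47.2, 42.8 and 59.8 in WT and 78.9, 116 and 117 in KO. In the alternative activation list 5 of 26 rose and 9 fell. Those that fell include Axl (26223, 25810 and 27589 against 13838, 13744 and 13565), a receptor for apoptotic cells, Cd5l (log2 -0.90) and Chil3 (-1.75), and Gas6, the ligand of Axl, rose by 0.47. Mpeg1, the pore-forming perforin-2 gene, had 240818, 252465 and 263858 in WT and 324368, 334510 and 319683 in KO. In the macrophage identity list the 5 lower calls became 3 without KO replicate 2 or without WT replicate 3, and the 3 higher calls, Klf2 (0.55), Maf (0.19) and Ptprc (0.19), became 1 without any one of KO replicates 1 and 2 and the WT libraries. Aif1, which encodes Iba1, had 7118, 6298 and 6310 in WT and 3517, 2882 and 3186 in KO, and the high-affinity Fc receptor Fcgr1 was at -0.43. The lysozyme gene Lyz2 took 1.08% ± 0.04 (SD, n = 3) of normalized counts in WT and 0.699% ± 0.036 (SD, n = 3) in KO.

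Adhesion genes were higher in 8 of 26 and lower in 6. Cd81, a tetraspanin, had 3954, 4515 and 4564 in WT and 8159, 7814 and 8297 in KO (log2 0.90, SE 0.07, adjusted p = 1.02e-05). Vcam1 and Itgb3, both low, rose by 1.18 and 1.03, and Itga4, the partner of Vcam1, by 0.43. The integrins Itgav (-0.46) and Itga5 (-0.34) fell. Osteoclast genes were lower in 4 of 13 and higher in 1, where Dcstamp, needed for cell fusion, had 682, 544 and 471 in WT and 101, 249 and 188 in KO, and Acp5 (-0.80) and Mmp14 (-1.40) fell. In cell death genes the necroptosis pair Ripk3 (1774, 1728 and 1644 against 920, 960 and 806) and Mlkl (log2 -0.89) fell, and Casp4 and Mcl1 rose by 0.43 and 0.24. Bcl2a1b rose by 0.96 but is a close copy of other Bcl2a1 genes and so is uncertain. Ptger3, a prostaglandin E receptor, had 17.9, 14.3 and 23.3 in WT and 125, 112 and 140 in KO (log2 2.72), and the leukotriene synthase Ltc4s rose by 0.83. Among genes of arginine and polyamine metabolism Ass1 (-1.36) and Arg2 (-1.10) fell. Of 33 immediate early genes 10 were lower and 3 higher, the lower ones including Fos (log2 -0.87) and Nr4a1 (-0.84) and the higher ones Egr3 (0.61).

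Some of the largest changes fell in none of these lists. Camsap3, which caps microtubule minus ends, had 2514, 1979 and 1524 in WT and 483, 185 and 254 in KO (log2 -2.79). Eps8l1, an actin regulator, had 1366, 1442 and 1398 in WT and 187, 221 and 269 in KO. Nptx1, a neuronal pentraxin, had 611, 585 and 414 in WT and 88.6, 104 and 84.4 in KO. Their groups lay far apart. On the higher side Atp9a, a lipid flippase, had 142, 66.6 and 55.4 in WT and 711, 380 and 406 in KO, and Dkk2, a secreted Wnt antagonist, had 75.5, 60.0 and 69.8 in WT and 250, 244 and 219 in KO. Gpr141 (log2 1.33), Msh5 (1.25), a meiotic MutS homologue, Tns2 (1.23) and Treml1 (1.22) followed. Pbk (-2.12) and Pclaf (-2.04), both proliferation-linked, fell.

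The same genotypes were also compared under DMXAA, in 6 libraries that share none with the vehicle comparison. There 2686 of 12499 genes were called (21.5%), 1351 lower (10.8%) and 1335 higher (10.7%), and with libraries scaled to the same total 34.3% of the calls were higher rather than 49.7%. Of 1198 genes lower under vehicle and tested in both, 937 (78.2%) had the same sign under DMXAA and 521 were called lower there too. Of 879 genes higher under vehicle, 709 (80.7%) kept their sign and 344 were called higher. The median difference of the first set went from -0.52 to -0.21 and that of the second from 0.34 to 0.18. Since the sets were chosen on the vehicle values, a smaller median elsewhere is a description only.

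The test of the difference between the treatments is the interaction, KO minus WT under DMXAA less KO minus WT under DMSO, called for 1100 of 12263 genes (8.97%), 686 positive (5.59%) and 414 negative (3.38%). With libraries scaled to the same total 483 were positive and 759 negative, 38.9% positive rather than 62.4%, and the median of all genes shifted by -0.07. For interferon-stimulated genes 47 of 78 had a called positive interaction and 1 a negative one, 44 and 1 under same-total scaling. Their median went from -0.54 under vehicle to -0.10 under DMXAA. Under DMXAA 35 of the 78 were called lower and 10 higher, against 10.8% and 10.7% of all genes, so a part of the list was lower there too. Irf7 differed by -1.98 under vehicle and 0.10 under DMXAA, an interaction of 2.08 (SE 0.13, adjusted p = 3.66e-07). Ccl5 likewise went from -2.02 to 0.31 and C3 from -1.46 to 0.29. For mitotic genes 7 of 77 interactions were positive and 6 negative, 4 and 3 without WT replicate 2 of the vehicle arm, and the median was -0.88 under DMXAA with 62 called lower. For homologous recombination genes no interaction was positive and 1 of 38 was negative. Replication genes lay between, with 10 of 50 positive and 8 under same-total scaling, among them Pcna, which was -0.81 under vehicle and 0.30 under DMXAA. Mgmt differed by -1.11 under DMXAA, with an interaction of -0.28 that did not pass. The plot of both differences shows interferon genes around the horizontal axis, on both sides of it, and mitotic genes near the diagonal.

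**Figure D5:**
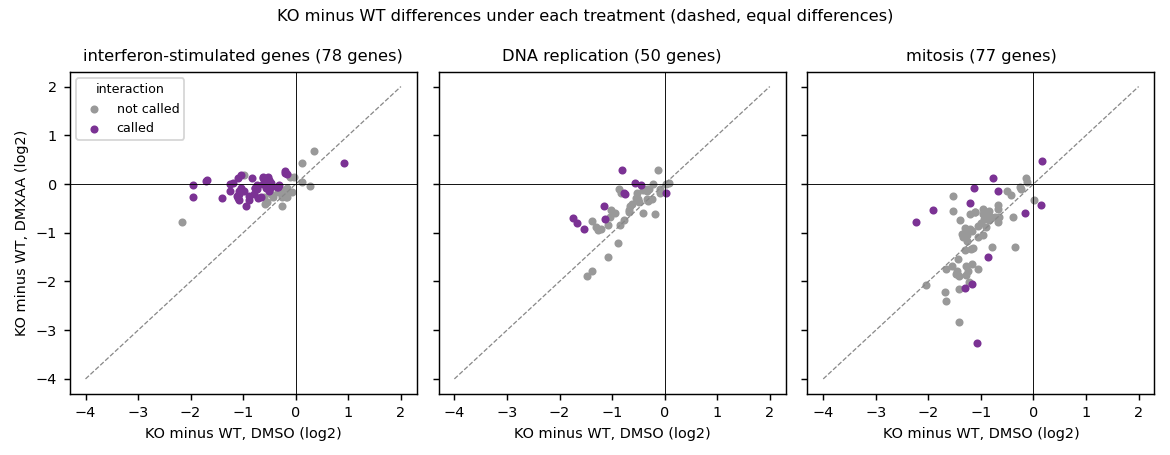
KO minus WT difference under DMXAA (y axis, log2) against that under DMSO (x axis, log2) for members of 3 gene lists, 1 point per gene, purple where the interaction was called, with a dashed line at equal differences. Of 78 interferon-stimulated genes 48 are purple, of 50 replication genes 11 and of 77 mitotic genes 13.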

How the data were processed

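Libraries were made with a strand-specific mRNA kit, per the labels' protocols. The submitters' processing notes name HISAT2, featureCounts and mm10. Versions and the strand setting of the counting are not given in the sources used here, so overlapping or antisense genes cannot be told apart. The deposited signal values are the authors' normalized counts per gene. Dividing each library's values by its own smallest step gave whole reads for 100% of them (tolerance 0.01), 79.5 to 93.9 M reads per vehicle library. The authors' deposited tables of log2 fold changes, test scores and p-values served only as a cross-check: of 2324 tested genes they call, 2042 had the same direction and call here. Values were tested with limma 3.58.1 in R 4.3.3 (trend, two-sided) on log2(normalized count + 1), for genes with a mean of at least 10, with Benjamini-Hochberg adjustment at 0.05. The fit was checked on simulated counts in which few genes changed and all genes shared a single dispersion. It recovered 56 of 67 genes changed 1.5-fold and 61 of 67 changed 2-fold. Real genes need not share a dispersion, so this check gives no error rate for the calls reported here. Alternatives were other scalings, pseudocounts of 0.5 and 10, no filter, a mean of at least 50, edgeR 4.0.16, DESeq2 1.42.0, a replicate block and leaving out each library.

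Named genes were Mgmt, a few identity genes and the direct-reversal enzymes with Mpg; the 15 called genes changed most in each direction with means of at least 100 and no overlap; the 12 called genes of highest mean; and in each list the 4 called members of smallest p per direction (all, where 6 or fewer were called) and the most abundant uncalled member. Members and lists were chosen with earlier results of these data known, and some genes were added after their values were seen. Promoter windows were shortened to exclude transcribed bases after motif shares were seen. Promoter sequences are from RefSeq. Some results are not reported here.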

Additional observations from a re-analysis of the deposited data

Results flagged for a closer look

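For 15 of the most changed or most abundant genes named here the KO minus WT difference itself differed between treatments, by the interaction test in limma over 12 libraries. Of 349 genes followed singly and tested for the interaction 138 were called, against 8.97% of all genes. The 15 genes were named by their vehicle values, which also enter the interaction, so their smaller differences under DMXAA are a description only. The values that follow are the difference under DMSO, that under DMXAA and their interaction, all log2. Among the genes lower under vehicle, Ccl2 went from -2.15 to 0.11 (interaction 2.26), Cfb from -2.11 to -0.12 (1.99) and the proliferation factor Mybl2 from -2.23 to -0.78 (1.45). The chaperone genes Hspa1a and Hspa1b went from -2.61 to -1.51 (1.10) and from -2.42 to -1.35 (1.07). Abundant genes with smaller differences were Spp1, from -0.94 to -0.14 (0.79), and Ly6e, from -0.73 to -0.07 (0.66). Gnas went from -0.23 to 0.14 (0.37), Capg from -0.24 to 0.02 (0.25) and Gsn from -0.17 to 0.08 (0.25). The interaction of Mybl2 was not called under same-total scaling (1.39, adjusted p = 0.0531) or without any one of 9 of the 12 libraries (1.22 to 1.47), and that of Capg not under same-total scaling (0.18) or without replicate 2 of either genotype under DMXAA (0.23 and 0.25). The vehicle call of Gnas was lost without KO replicate 1 or KO replicate 2, and that of Gsn without KO replicate 1 or WT replicate 2. Among the genes higher under vehicle, Msh5 went from 1.25 to 0.05 (-1.20), Trib3 from 1.81 to 0.83 (-0.98) and Gpr141 from 1.33 to 0.43 (-0.90). The clock output gene Dbp went from 1.18 to 0.40 (-0.77) and Mpeg1 from 0.37 to 0.04 (-0.33).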

How the results depend on the processing

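Of the 357 genes followed singly under the 16 alternatives, none reversed the sign of a called difference. Without KO replicate 1 the vehicle calls dropped from 2129 to 1399 and those higher in KO from 902 to 514, and with any 1 library left out the ranges were 1399 to 1899 and 514 to 827. Under DMXAA, 216 genes were called at least 2-fold when a mean of at least 50 was required. Scaling all libraries to the same total gave 2213 vehicle calls, of which 50.9% rather than 42.4% were higher. DESeq2 called 2420 genes, edgeR's quasi-likelihood test 2127 and the fit with TMM scaling 2135. Of 290 called genes that were followed singly, 228 kept their call in all 16 settings and 62 lost it in at least 1, 42 of them without KO replicate 1. Same-numbered libraries deviated together with correlations of -0.026, 0.066 and 0.007, and libraries of different number with -0.071 to 0.062. With 3 libraries per genotype these values cannot settle whether the replicate numbers pair the samples. A replicate block gave 1915 calls, 1835 of them shared with the fit without it. Genes with means from 10 to 100 had a median SE of 0.35 against 0.05 above 10000, and 9.50% of them were called against 24.1%.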

Other observations

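Genes of the circadian clock were higher in vehicle-treated KO cells, in a list chosen after their values were seen, so its counts are a description. Of 17 tested genes 11 were higher and 1 lower, at a median of 0.52, with 7 higher without KO replicate 1 and 6 without KO replicate 2. Dbp, an output factor of the clock, had 641, 576 and 505 normalized counts in WT and 1278, 1310 and 1290 in KO. Per3 had 671, 639 and 574 in WT and 1224, 1365 and 1112 in KO. The repressor Nr1d1 had 447, 474 and 367 in WT and 829, 801 and 792 in KO. No KO library overlapped the WT libraries for these 3 genes. Tef, Cry2 and Nr1d2 rose by 0.62, 0.52 and 0.45. The labels do not give the clock time of harvest.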
